A study of Mus musculus with 4 samples.

Results

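Genes for 8 chemokine receptors and other G protein-coupled receptors of lymphocyte homing were examined in TCRαβ+CD8αα+ intraepithelial lymphocytes (IELs) of the mouse small intestine. They were *Ccr9*, *Cxcr3*, *Ccr2*, *Cxcr6*, *Ccr7*, *S1pr1*, *Gpr18* and *Gpr15*, chosen by name, and they are 8 of the 19339 genes listed in the deposited files. All 8 were among the 12009 genes tested, which had at least 1 FPKM in at least 2 libraries. The study asked how the histone demethylase Kdm6b, which takes methyl groups off lysine 27 of histone H3, acts in these cells. It compared *Kdm6b* F/F mice, which carry loxP-flanked *Kdm6b* alleles and served as controls, with *Kdm6b* F/F-*CD4Cre* mice, in which a CD4-driven Cre removes the flanked part in αβ T cells from thymic development onward and thus not in IELs alone. All mice were C57BL/6, no treatment of the animals was named for these samples, and their age was not given in the sources used here. The libraries of the second group are called CD4Cre-labelled below. Each group had 2 RNA-seq libraries, numbered 1 and 3, and each library held RNA pooled from 3 mice, so p-values measure only the spread between such pools. The sort took CD45+CD4-TCRβ+CD8α+CD8β- cells.

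Homing receptors are seven-helix receptors that couple to inhibitory G proteins and steer lymphocytes along gradients of chemokines or lipids. In the gut, CCR9 draws T cells toward CCL25 made by the small intestinal epithelium, GPR15 does so mainly for the large intestine, and CXCR6 and GPR18 are linked to residence of T cells in mucosal tissue. CCR7 and S1PR1, by contrast, take part in the traffic of T cells into lymph nodes and out of lymphoid organs, while CXCR3 and CCR2 answer to inflammatory chemokines.

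The labels and the cells were checked first. *Kdm6b* (Entrez 216850, chromosome 11) had 16.5 and 16.0 FPKM in control replicates 1 and 3. In the CD4Cre-labelled replicates 1 and 3 it had 18.2 and 11.1 FPKM, so the level in replicate 1 did not go with its label. The value covers the whole gene, and the deleted part is not given in the sources used here. For this reason these libraries are named by their label throughout. *Cd8a*, which the gate kept, ranged from 280 to 463 FPKM and *Cd8b1*, which it left out, from 0 to 1.64 FPKM. *Cd4*, which the gate also left out, was detected in each library, at 3.17 to 30.55 FPKM. The relative sequencing depth, read from how finely low FPKM values were spaced, was 0.831 in CD4Cre-labelled replicate 3 and 0.983 in control replicate 3, with control replicate 1 set to 1, and CD4Cre-labelled replicate 1 was about equal to control replicate 1.

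The libraries did not hold the same mixture of RNA. All 23 intestinal epithelial markers were detected in each library, and their summed level was 1631 and 5243 FPKM in control replicates 1 and 3 against 4913 and 12636 FPKM in the CD4Cre-labelled libraries. The geometric mean of 5 T cell genes (*Cd3d*, *Cd3e*, *Cd3g*, *Cd247* and *Ptprc*) was 437 and 362 FPKM in the controls and 363 and 242 FPKM in the CD4Cre-labelled libraries, highest where the epithelial markers were lowest and lowest where they were highest. Of 13 tested genes typical of these IELs, 8 were lower in both CD4Cre-labelled libraries, against 18.6% of all genes tested, with a median log2 difference of -0.52. Markers of naive and conventional T cells, which the gate acted on through CD4 and CD8β only, summed to 229 and 255 FPKM in the replicate 1 libraries of the control and labelled groups and to 136 and 52.8 FPKM in the replicate 3 libraries. The 12 markers of monocytes, macrophages and dendritic cells summed to 482 and 329 FPKM in the controls and to 547 and 745 FPKM in the CD4Cre-labelled libraries, with none at 0. Of the 7 listed γδ T cell markers 1 was in the files. In such bulk samples fewer cells of a type and less RNA per cell cannot be told apart.

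In the control libraries *Cxcr6* was the most abundant of the receptors and *Gpr15* the least. The control means, in FPKM, which are scaled to transcript length, were 182 ± 40.8 (SD, n = 2) for *Cxcr6*, 137 ± 27.2 for *Gpr18*, 63.3 ± 0.035 for *Ccr9*, 42.6 ± 13.7 for *Cxcr3* and 17.3 ± 7.19 for *Ccr7*. Below them came *Ccr2* at 8.77 ± 1.24, *S1pr1* at 7.82 ± 3.61 and *Gpr15* at 2.01 ± 1.04 FPKM. *Cxcr6* and *Gpr18* overlapped, as did *Ccr2* and *S1pr1*, while every other neighbouring pair in this order was separate. The receptor of the CXCL16 chemokine, *Cxcr6*, ranked 541st of all listed genes by its control mean and *Ccr9* ranked 1753rd, whereas *Gpr15* ranked 10572nd. In the CD4Cre-labelled libraries, the range of *Ccr9* overlapped that of *Cxcr3* and the range of *Cxcr3* overlapped that of *Ccr7*.

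**Figure D1:**
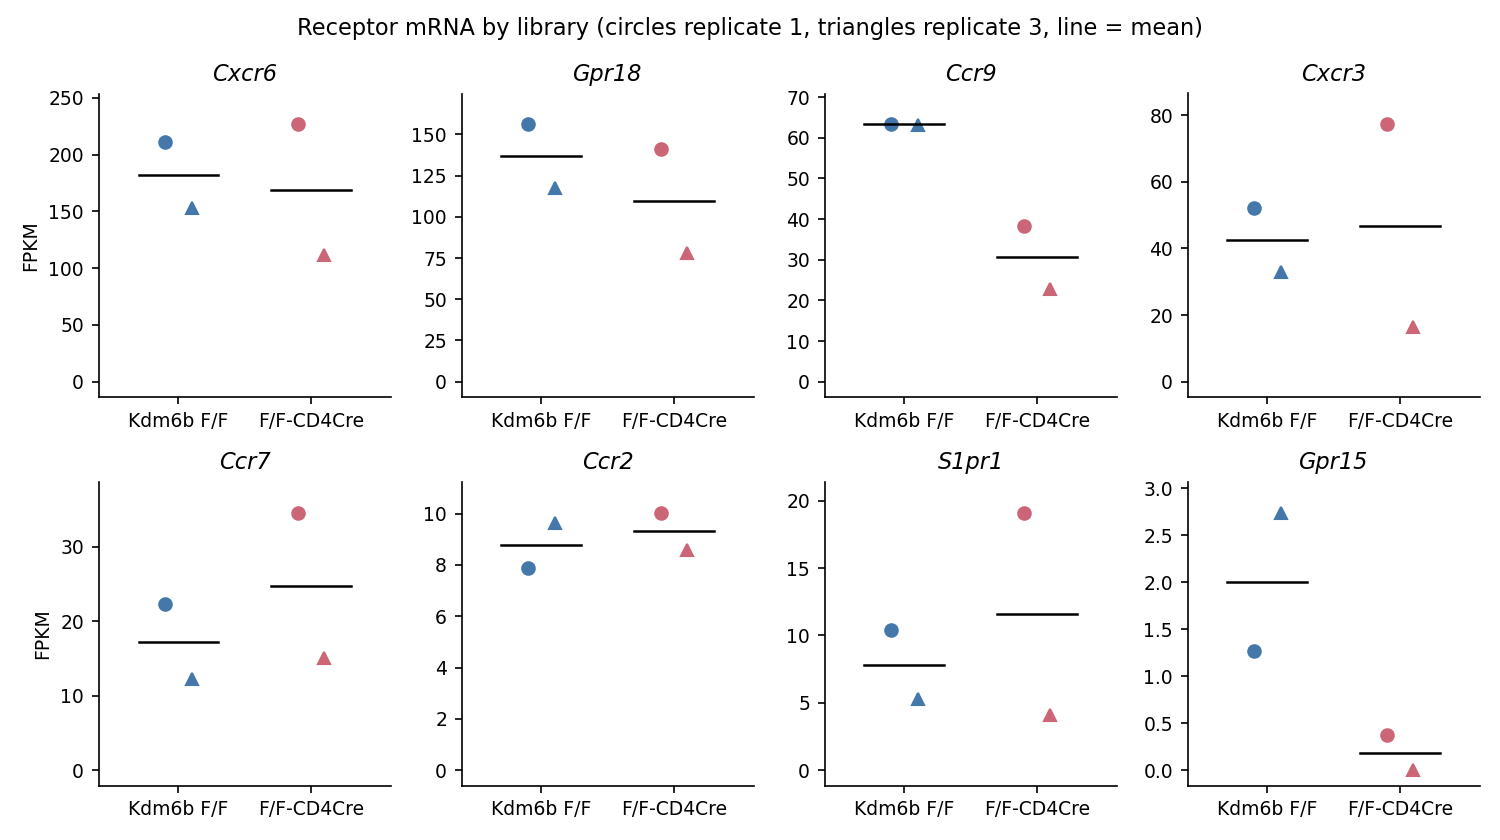
FPKM of the 8 receptor genes (vertical axes, each with its own linear scale) in the 2 control (*Kdm6b* F/F) and the 2 CD4Cre-labelled libraries, with circles for replicate 1, triangles for replicate 3 and a line at the group mean. *Ccr9* and *Gpr15* are the 2 genes whose groups do not overlap, and for *Cxcr6*, *Gpr18*, *Cxcr3*, *Ccr7* and *S1pr1* both circles lie above both triangles.

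*Ccr9* and *Gpr15*, the receptors that guide T cells to the small and the large intestine, were lower in both CD4Cre-labelled libraries than in both control libraries, and the other 6 receptors overlapped between the groups. Across all genes tested, 18.6% lay lower in both CD4Cre-labelled libraries and 18.4% lay higher in both, against 2 and 0 of the 8 receptors. *Gpr15* reached the minimum of 1 FPKM in the controls alone, so the filter fixed its direction, and of the other 7 receptors *Ccr9* was the 1 that lay lower. A log2 difference below -1 was seen in 0.441% of the genes tested and, *Gpr15* aside, in *Ccr9*, and a difference above 1 in 6.2% of the genes and in none of the receptors. The limma model, which tests log2(FPKM + 1) across all genes with the group as its only term, called 0 of the 12009 genes at an adjusted p under 0.05 (0%), and so none of the 8 receptors. At an unadjusted p under 0.05 it passed 642 genes (5.35%), *Ccr9* and *Gpr15* among them. With 2 libraries against 2, an exact two-sided permutation test of a single gene cannot give a p below 0.333. The median log2 difference was -0.19 over the 8 receptors and 0.00097 over all genes tested.

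*Ccr9* (Entrez 12769, chr9:123767211-123783457 of GRCm38), the CCL25 receptor, had 63.30 and 63.25 FPKM in control replicates 1 and 3. It had 38.28 and 22.88 FPKM in CD4Cre-labelled replicates 1 and 3. The control libraries were nearly equal, and both CD4Cre-labelled libraries were below them, with a mean of 30.6 ± 10.9 FPKM (SD, n = 2) that was 51.7% lower. The log2 difference, CD4Cre-labelled minus control, was -1.07 (SE 0.27, limma adjusted p = 0.755, unadjusted p = 0.0095). It was -0.71 without the CD4Cre-labelled replicate 3 and -0.66 when the libraries were scaled to the 5 T cell genes. The difference was negative under each of 14 settings, but several of these could not turn it. Its groups did not overlap, so leaving out 1 library could not, and the replicate block, filters and trend left the value unchanged.

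*Gpr15* (Entrez 71223, chr16:58716643-58718872) is the receptor best known for homing of T cells to the colon, and it was the lowest of the 8. It had 1.27 and 2.74 FPKM in control replicates 1 and 3, 0.37 FPKM in the CD4Cre-labelled replicate 1, and was listed at 0 in the CD4Cre-labelled replicate 3. By the steps of the low FPKM values these rest on about 27, 57, 8 and 0 fragments, and a count of 0 allows up to 3 fragments or 0.17 FPKM there, for counting error only. Both CD4Cre-labelled libraries were below both controls, with a log2 difference of -1.32 (SE 0.41, limma adjusted p = 0.755, unadjusted p = 0.021). At levels this close to 0 the pseudocount sets the size of the difference, which was -3.19 with a pseudocount of 0.1. The gene passed the minimum of 1 FPKM through the control libraries alone, so a gene of this kind could enter the test only with a difference in this direction, and its difference is given as a description.

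The receptors of mucosal residence were the most abundant and did not separate the groups. *Cxcr6* (Entrez 80901, chr9:123806477-123811754) had 210.72 and 153.02 FPKM in the controls and 226.60 and 111.63 FPKM in the CD4Cre-labelled libraries. The highest and the lowest of the 4 values were thus both in CD4Cre-labelled libraries. Its log2 difference was -0.17 (SE 0.37, limma adjusted p = 0.915). *Gpr18* (Entrez 110168, chr14:121911434-121915888), a receptor known to be needed for normal numbers of CD8αα+ IELs, had 156.03 and 117.55 FPKM in the controls and 140.89 and 77.80 FPKM in the CD4Cre-labelled libraries. The CD4Cre-labelled replicate 1 lay between the controls and the CD4Cre-labelled replicate 3 below them. The log2 difference of *Gpr18* was -0.37 (SE 0.32, limma adjusted p = 0.8). Both directions turned with scaling to the T cell genes, to 0.25 for *Cxcr6* and 0.052 for *Gpr18*, a scaling that moved the median of all genes by 0.38. Without the CD4Cre-labelled replicate 3 they were 0.33 and 0.057, and without control replicate 1 *Cxcr6* was at 0.056. With the epithelial marker level as a covariate in the limma model they were 0.44 and 0.16, neither called.

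The inflammatory chemokine receptors differed from each other in their spread. *Cxcr3* (Entrez 12766, chrX:101731535-101734147), which binds interferon-induced chemokines, had 52.26 and 32.89 FPKM in the controls and 77.23 and 16.43 FPKM in the CD4Cre-labelled libraries. The CD4Cre-labelled libraries were 1 above and 1 below both controls, giving a log2 difference of -0.20 (SE 0.70, limma adjusted p = 0.953), which turned to 0.20 with scaling to the T cell genes, to 0.88 without the CD4Cre-labelled replicate 3, to 0.12 without control replicate 1 and to 0.96 (adjusted p = 0.0725) with the epithelial covariate. *Ccr2* (Entrez 12772, chr9:124101918-124109140), the monocyte chemokine receptor, was the steadiest of the 8. Its values were 7.89 and 9.64 FPKM in the controls and 10.03 and 8.58 FPKM in the CD4Cre-labelled libraries. The log2 difference was 0.080 (SE 0.26, limma adjusted p = 0.951) and was -0.00067 after quantile normalization, -0.050 without control replicate 1 and -0.022 without the CD4Cre-labelled replicate 1.

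The receptors of recirculation were higher on average in the CD4Cre-labelled libraries, but within a wide spread. *Ccr7* (Entrez 12775, chr11:99144199-99155077), which directs T cells to lymph nodes, had 22.37 and 12.20 FPKM in the controls and 34.58 and 15.06 FPKM in the CD4Cre-labelled libraries. The CD4Cre-labelled replicate 1 was above both controls and the CD4Cre-labelled replicate 3 lay between them, with a log2 difference of 0.44 (SE 0.47, limma adjusted p = 0.829). *S1pr1* (Entrez 13609, chr3:115710433-115715055), the sphingosine 1-phosphate receptor of thymic and lymph node exit, had 10.37 and 5.26 FPKM in the controls and 19.09 and 4.08 FPKM in the CD4Cre-labelled libraries. Its log2 difference was 0.26 (SE 0.70, limma adjusted p = 0.936), and the CD4Cre-labelled libraries again held both the highest and the lowest value. Without the CD4Cre-labelled replicate 1 the differences were -0.13 for *Ccr7* and -0.73 for *S1pr1*, and without the CD4Cre-labelled replicate 3 they were 1.02 and 1.25. Without control replicate 1 they were 0.86 and 0.69, and without control replicate 3 they were 0.033 and -0.17. With the epithelial covariate limma called both, *Ccr7* at 1.28 (adjusted p = 0.00511) and *S1pr1* at 1.45 (adjusted p = 0.0239), against 1.89% of all genes tested. That covariate was computed from the same 4 libraries.

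For *Cxcr3*, *S1pr1*, *Ccr7*, *Cxcr6* and *Gpr18*, both replicate 1 libraries were above both replicate 3 libraries. This held for 5 of the 8 receptors and for 22.8% of the genes tested. It also held for 8 of the 10 tested markers of naive and conventional T cells. The split was seen too in 6 of 10 integrins and adhesion genes, 17 of 31 genes of G protein signalling and 3 of the 5 T cell genes. It held for 5 of 13 genes typical of these IELs and for 0 of 23 epithelial markers. *Cd4* had 30.55 and 10.13 FPKM in control replicates 1 and 3 and 30.47 and 3.17 FPKM in the CD4Cre-labelled replicates 1 and 3, and *Cd28* had 29.58, 15.61, 48.79 and 3.28 FPKM in that order. *Cd5*, a surface marker that CD8αα+ IELs largely lack, had 36.98, 19.29, 37.90 and 3.38 FPKM. *Ccr9* and *Gpr15* did not share this split, since *Ccr9* was nearly equal in the controls and *Gpr15* was higher in control replicate 3 than in control replicate 1. The part of conventional T cells in the receptor values was not tested.

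**Figure D2:**
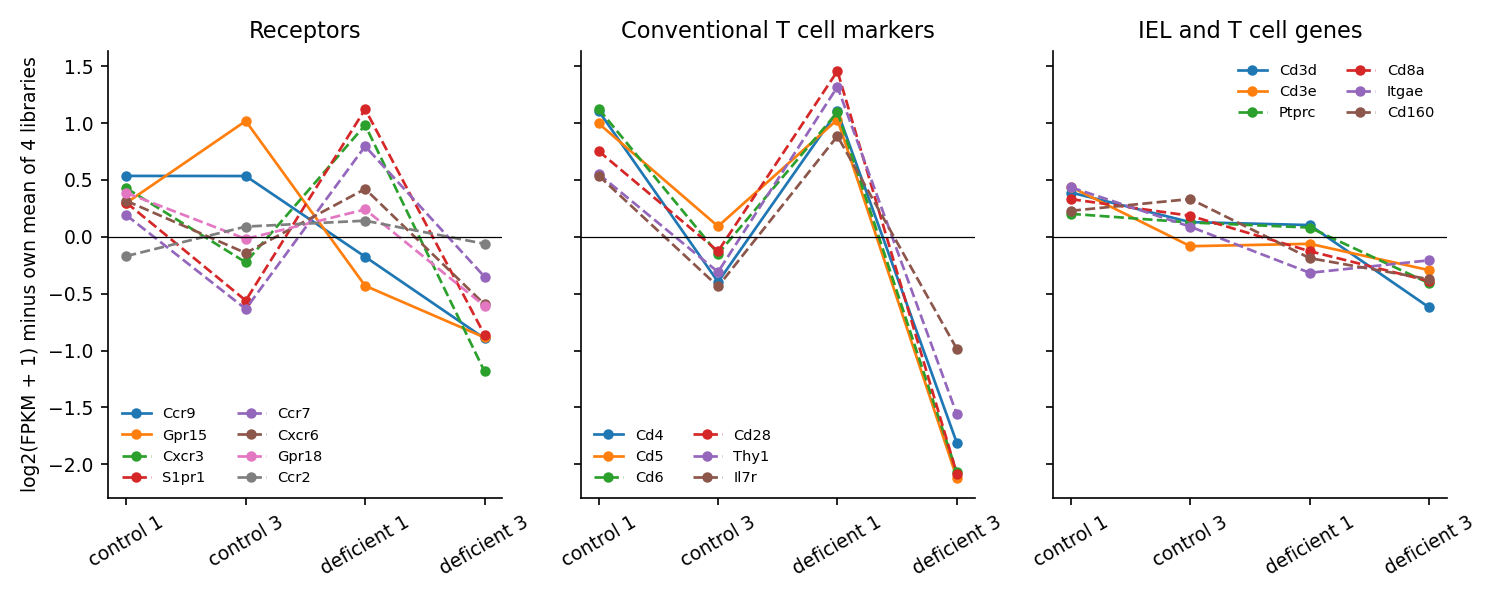
Level of each gene in the 4 libraries as log2(FPKM + 1) minus its own mean over the libraries, for the 8 receptors (left), 6 conventional T cell markers (centre) and 6 T cell and IEL genes (right), with "deficient" for the CD4Cre-labelled libraries. The conventional T cell markers and *Cxcr3*, *S1pr1* and *Ccr7* peak in both replicate 1 libraries, whereas *Ccr9* is level across the controls and lower in the other 2 libraries.

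Because the mean of the T cell genes was itself lower in the CD4Cre-labelled group, with a log2 difference of -0.42 and control replicate 3 and CD4Cre-labelled replicate 1 alike, each receptor was also expressed as a percent of the geometric mean of the 5 T cell genes of its own library. *Ccr9* came to 14.5% and 17.5% in the controls and 10.5% and 9.46% in the CD4Cre-labelled libraries. The groups stayed apart on this scale, as they did for *Gpr15*, at 0.291% and 0.757% against 0.102% and 0%. *Ccr7* was 5.12% and 3.37% in the controls and 9.51% and 6.23% in the CD4Cre-labelled libraries, so that its groups no longer overlapped and the labelled one was higher. *Ccr2* likewise did not overlap, at 1.81% and 2.66% against 2.76% and 3.55%. The other 4 receptors still overlapped, while 39.8% of all genes tested did not overlap on this scale. Scaling to these T cell genes put the median log2 difference of all genes at 0.38 and left 12.1% of them negative. *Ccr2* was at 0.46 and *Ccr7* at 0.84 under it. The ratio of *Ccr9* to *Cxcr6*, which no scaling of a whole library can change, was 0.3 and 0.413 in the controls and 0.169 and 0.205 in the CD4Cre-labelled libraries, and the ratio of *Ccr9* to *Gpr18* was 0.406 and 0.538 against 0.272 and 0.294. *Ccr9* was thus lower relative to either of the more abundant residence receptors in both CD4Cre-labelled libraries, whereas its ratio to *Cxcr3* overlapped, at 1.21 and 1.92 against 0.496 and 1.39.

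**Figure D3:**
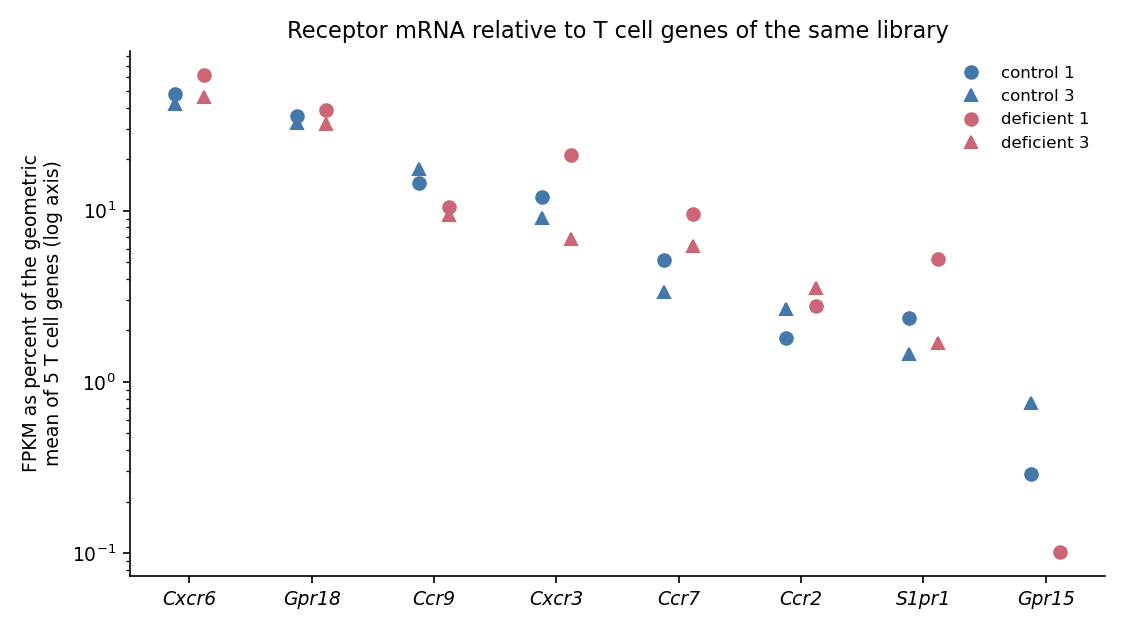
FPKM of each receptor as a percent of the geometric mean FPKM of 5 T cell genes in the same library (log axis), with blue for control and red for CD4Cre-labelled libraries ("deficient"), circles for replicate 1 and triangles for replicate 3. *Ccr9* lies at 14.5% and 17.5% in the controls and at 10.5% and 9.46% in the CD4Cre-labelled libraries, and *Gpr15* in the CD4Cre-labelled replicate 3 is not drawn because it is listed at 0.

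The genes *Ccr9*, *Cxcr6* and *Ccr2* are neighbours on mouse chromosome 9 within an interval of 342 kb that also holds *Ccr1* and *Ccr3*. The 250 bases that RefSeq places before the starts of *Ccr9* (chr9:123766961-123767210, plus strand, GRCm38.p6) and *Cxcr6* (chr9:123806227-123806476, plus strand) are shown because these starts lie 39.3 kb apart while the genes differed in their values. The study also measured a histone mark at the *Ccr9* promoter, which was not analysed here. Capitals mark matches, on either strand, to the letters CAGGTG (an E-box), CACCC (the core of KLF sites), TGTGGT (the core of RUNX sites), AGGTCA (the repeat unit of retinoid receptor sites), GGTGTGA (the core of T-box sites) or TGANTCA (an AP-1 site).
Ccr9: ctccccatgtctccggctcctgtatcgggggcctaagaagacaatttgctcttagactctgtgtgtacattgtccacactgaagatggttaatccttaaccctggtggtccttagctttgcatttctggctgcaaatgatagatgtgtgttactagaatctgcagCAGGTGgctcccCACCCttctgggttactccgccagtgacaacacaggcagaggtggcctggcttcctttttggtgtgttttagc
Cxcr6: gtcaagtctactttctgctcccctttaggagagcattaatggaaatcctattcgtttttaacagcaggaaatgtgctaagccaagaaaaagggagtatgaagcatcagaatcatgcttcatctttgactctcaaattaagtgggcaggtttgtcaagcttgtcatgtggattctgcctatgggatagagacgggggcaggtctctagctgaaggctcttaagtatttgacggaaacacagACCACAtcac
The *Ccr9* window held the E-box letters 85 bases and the CACCC letters 73 bases before the start, and no match to the other 4. These letters occur in 17.2% and 52.0% of the 32851 promoter windows of this length in the RefSeq table. The *Cxcr6* window held only the RUNX core, on the opposite strand 10 bases before the start, which 14% of the windows hold. Both windows had 3 CpG against a median of 6. A match describes letters only, and no binding was measured here. Promoters of 6 of the 8 receptors were in the table.

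Around these genes, *Ccr9* was the single gene of 14 tested and reported within 500 kb of the interval that was lower in both CD4Cre-labelled libraries. Another 3 genes were higher in both, and the other 10 overlapped, against 18.6% lower and 18.4% higher over all genes tested, with a median log2 difference of 0.11. *Ccr3*, best known as the eotaxin receptor of eosinophils, had 0.77 and 0.76 FPKM in the controls and 4.5 and 5.3 FPKM in the CD4Cre-labelled libraries, a log2 difference of 1.74 (SE 0.31, limma adjusted p = 0.755). It passed the minimum of 1 FPKM through the CD4Cre-labelled libraries alone, and 7 of the 10 tested myeloid markers were also higher in both of them, whose part in the *Ccr3* value was not tested. *Slc6a20a*, an amino acid transporter of epithelia, had 3.28 and 4.81 FPKM in the controls and 4.97 and 17.20 FPKM in the CD4Cre-labelled libraries, a log2 difference of 1.06 that was 0.26 without the CD4Cre-labelled replicate 3, and was lowest and highest in the same libraries as the summed epithelial markers. *Lars2*, a mitochondrial enzyme, was higher by 0.35, which was 0.72 with scaling to the T cell genes, 0.19 with the epithelial covariate and 0.23 without control replicate 1. Of the nearest neighbours, *Lztfl1* and *Fyco1* had log2 differences of -0.021 and -0.016, while *Limd1*, *Sacm1l*, *Gm39469*, *2010315B03Rik* and *Ppp2r3d* lay between -0.10 and 0.41. *Ccr1*, another receptor of the cluster, had a log2 difference of 0.63 with overlapping groups, and 1.21 (limma adjusted p = 0.0259) with the epithelial marker level as a covariate.

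**Figure D4:**
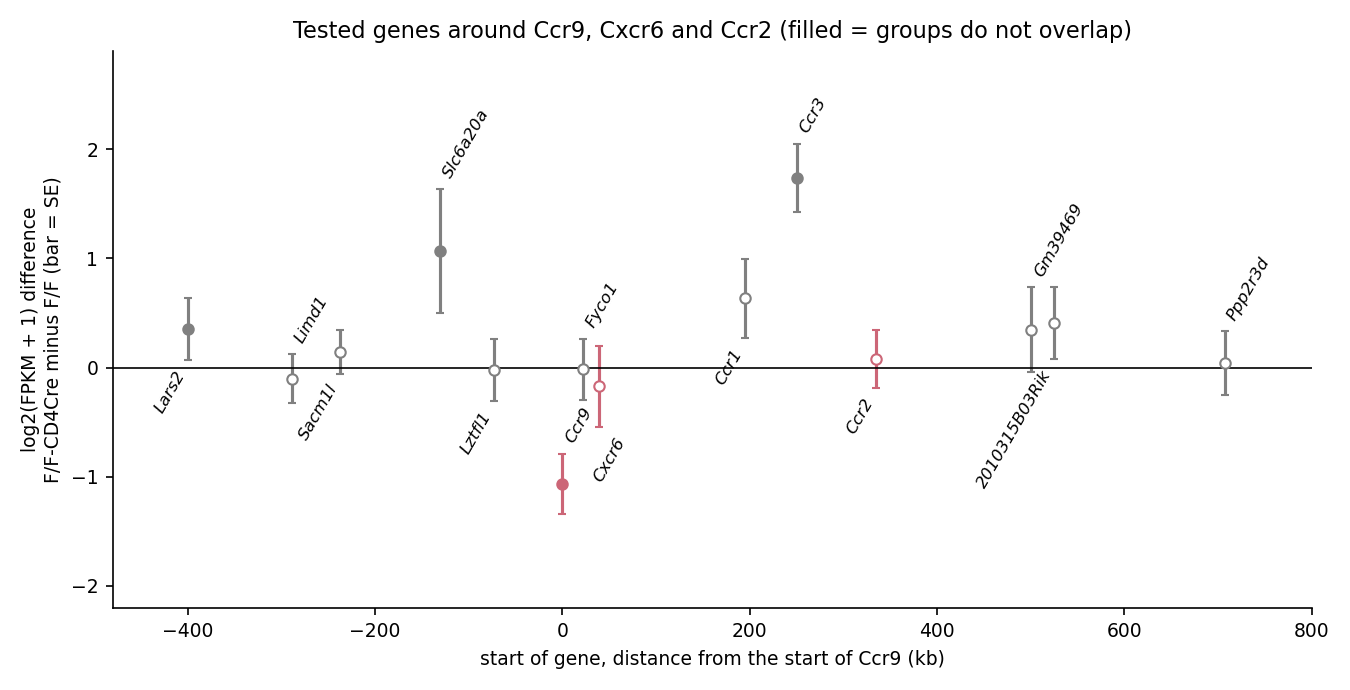
Log2 difference (CD4Cre-labelled minus control, with SE bars) of 14 tested genes around *Ccr9*, *Cxcr6* and *Ccr2*, against the distance of each gene's start from that of *Ccr9* in kb, with the receptors examined here in red and filled points where the groups do not overlap. *Ccr9* at -1.07 is the one filled point below 0, and *Cxcr6*, 39.3 kb away, is at -0.17.

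Within the wider families, few receptors separated the groups. Of 23 listed chemokine receptors 21 were in the files and 13 were tested, of which *Ccr9* was lower and *Ccr3*, whose direction the filter fixed, higher in both CD4Cre-labelled libraries, with a median log2 difference of 0.078. Of 17 tested receptors for lipids and orphan receptors of lymphocyte positioning, 5 were lower in both CD4Cre-labelled libraries and none was higher, against 18.6% and 18.4% of all genes tested, with a median of -0.37. *Gpr15*, whose direction the filter fixed, is 1 of the 5. *P2ry10*, a lysophospholipid receptor, had 208.45 and 189.04 FPKM in the controls and 157.05 and 84.99 FPKM in the CD4Cre-labelled libraries. *Gpr55*, a receptor known to restrain the movement of IELs, had 45.54 and 28.38 against 22.96 and 23.34 FPKM. *Ptger2*, a prostaglandin E receptor, had 3.83 and 3.19 against 2.18 and 1.69 FPKM, and *Gpr34*, named after its values were seen, had 165.34 and 140.39 against 129.01 and 93.06 FPKM. These 4 are the others of the 5, and their log2 differences lay between -0.78 and -0.47. With scaling to the T cell genes they were -0.35 for *P2ry10*, -0.20 for *Gpr55*, -0.32 for *Ptger2* and -0.051 for *Gpr34*. The difference of *P2ry10* was -0.34 without the CD4Cre-labelled replicate 3, and that of *Gpr55* was -0.28 without control replicate 1.

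**Figure D5:**
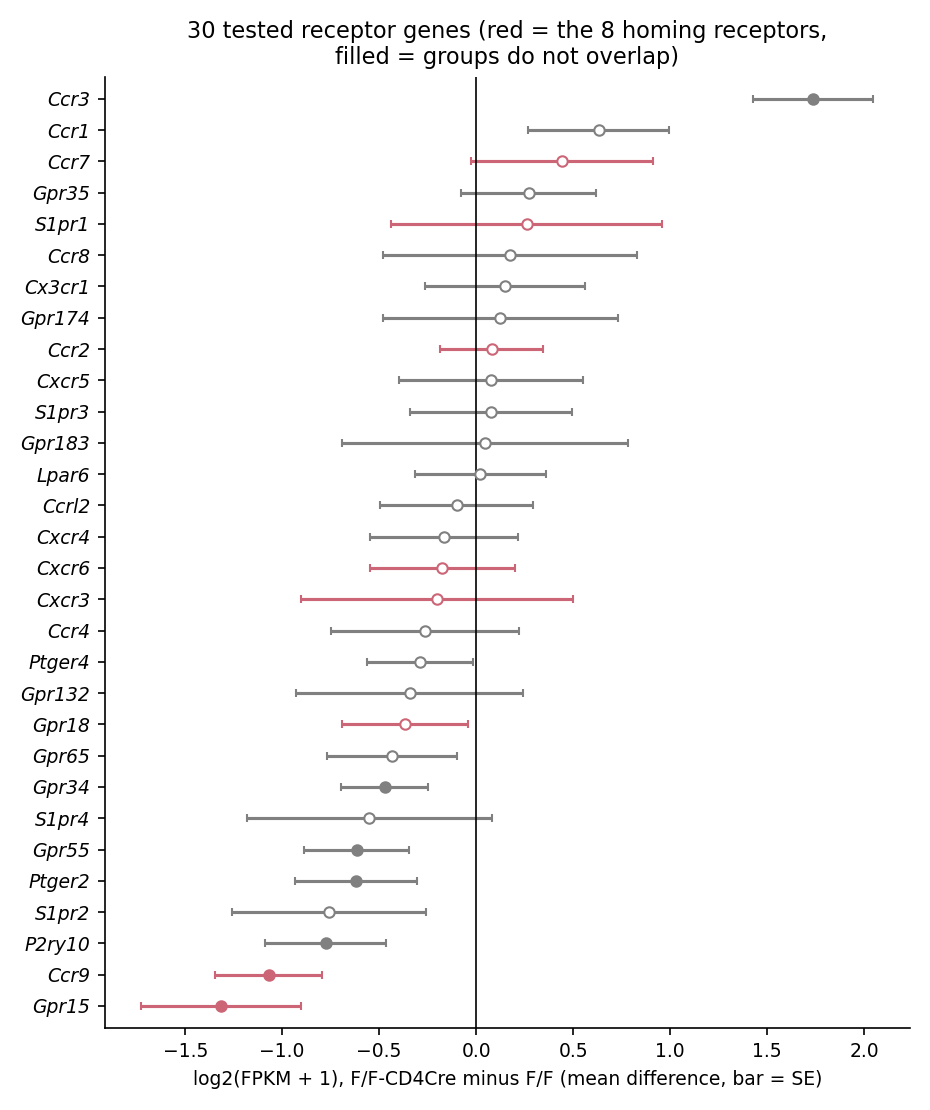
Log2 difference (CD4Cre-labelled minus control, points, with SE bars) of 30 tested chemokine, lipid and orphan receptor genes, the 8 homing receptors in red and filled points where the groups do not overlap. *Gpr15* at -1.32 and *Ccr9* at -1.07 are the lowest, and *Ccr3* at 1.74 the highest, and no gene passed an adjusted p of 0.05 in the limma model with the group as its only term.

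Several ligands of these receptors are products of epithelial or myeloid cells. Of 15 tested ligand genes 3 were higher in both CD4Cre-labelled libraries and none was lower, against 18.4% and 18.6% of all genes tested, with a median log2 difference of 0.21. *Ccl25*, the ligand of CCR9 and a product of enterocytes, had 39.67 and 95.51 FPKM in the controls and 106.04 and 283.72 FPKM in the CD4Cre-labelled libraries, a log2 difference of 1.48 (SE 0.59, limma adjusted p = 0.755). It was 0.34 with the epithelial marker level as a covariate and 0.77 without the CD4Cre-labelled replicate 3. Within the controls *Ccl25* differed by more than *Ccr9*, which was nearly equal in both. *Cxcl16*, the ligand of CXCR6, had 30.52 and 16.43 against 59.00 and 33.84 FPKM, a log2 difference of 0.96 that was 1.67 (limma adjusted p = 1.01e-05) with the epithelial covariate, 0.54 without control replicate 3 and 0.57 without the CD4Cre-labelled replicate 1. *Ccl12*, a ligand of CCR2, had 2 and 0.73 against 3.61 and 2.86 FPKM. The part of myeloid RNA in these ligand values was not tested.

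Integrins, adhesion genes and genes of G protein signalling act beside the receptors. Of 10 tested integrins and adhesion genes 2 were lower and 1 was higher in both CD4Cre-labelled libraries, against 18.6% and 18.4% of all genes tested. *Itgae*, the αE chain that binds E-cadherin on epithelial cells, had 382.95 and 300.99 FPKM in the controls and 227.03 and 245.09 FPKM in the CD4Cre-labelled libraries, a log2 difference of -0.52, and *Itga1* had a difference of -0.39. With scaling to the T cell genes they were -0.10 and 0.028. *Itgb1*, the β1 chain shared by many cell types, had 14.89 and 11.69 against 21.90 and 27.08 FPKM, a difference of 0.84, or 1.24 with scaling to the T cell genes. Of 31 tested genes of G protein signalling, 26 had a negative difference, 6 were lower and 3 higher in both CD4Cre-labelled libraries, against 18.6% and 18.4% of all genes tested, with a median of -0.27. A negative difference was seen in 49.9% of all genes, and with scaling to the T cell genes in 8 of the 31 and in 12.1% of all genes. The 4 lower ones with the largest differences were *Rhoh* (-0.67), *Gng2* (-0.59), *Rgs2* (-0.55) and *Coro1a* (-0.49), which encode a small GTPase of lymphocytes, a G protein γ chain, a regulator of G protein signalling and an actin-binding protein. *Rac1*, *Gnb2* and *Gnb1* were higher by 0.55, 0.32 and 0.29. With scaling to the T cell genes the 4 lower ones were at -0.26, -0.19, -0.13 and -0.066 and the 3 higher ones at 0.97, 0.73 and 0.71, and *Rac1* was at 0.24 without control replicate 3. None of the named genes here passed limma at an adjusted p under 0.05 with the group as the only term, and *Rac1* did with the epithelial covariate (0.80, adjusted p = 0.0252).

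Genes of S1PR1 control and transcription factors known to act at receptor genes gave no call in the limma model with the group as its only term. *Klf2*, a factor that switches on *S1pr1*, had 4.13 and 2.79 FPKM in the controls and 7.22 and 4.85 FPKM in the CD4Cre-labelled libraries, and was higher by 0.65 (SE 0.34, limma adjusted p = 0.755). That difference was 0.41 without the CD4Cre-labelled replicate 1, 0.43 without control replicate 3, 0.997 with scaling to the T cell genes and 1.05 with the epithelial covariate. *Sgpl1*, the enzyme that degrades sphingosine 1-phosphate, was higher by 0.32, which was 0.14 without the CD4Cre-labelled replicate 3 and 0.048 with the epithelial covariate. These 2 of the 6 tested genes did not overlap between the groups, against 37% of all genes without overlap. Of 10 tested factors, *Runx3*, which shapes the CD8 lineage, was lower at 101.11 and 69.08 against 67.61 and 40.29 FPKM, a log2 difference of -0.67. It was -0.30 without the CD4Cre-labelled replicate 3, -0.25 with scaling to the T cell genes and -0.12 with the epithelial covariate. Beside *Klf2*, *Rxra*, the retinoid X receptor, was higher, at 1.53 and 1.97 against 2.57 and 5.44 FPKM. Its log2 difference of 0.81 was 0.38 without the CD4Cre-labelled replicate 3 and 0.36 with the covariate.

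The genes with the pattern most like that of *Ccr9* were sought among 6892 tested genes with a mean of at least 10 FPKM, by the Euclidean distance of their centred log2(FPKM + 1) over the 4 libraries. The nearest were a predicted transcript listed as BGI_novel_G000460 (distance 0.212), *Nutf2-ps2* (0.215), *Gm12253* (0.236), *P2ry10* (0.33) and *Fbxo32* (0.347). *Nutf2-ps2* and *Gm12253* may share reads with near-identical genes, which makes their values uncertain. *Fbxo32*, a ubiquitin ligase subunit, had 20.68 and 18.00 FPKM in the controls and 14.20 and 8.56 FPKM in the CD4Cre-labelled libraries, against 63.30, 63.25, 38.28 and 22.88 FPKM for *Ccr9*. With 4 libraries this is a likeness of relative level only.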

How the data were processed

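The authors had the RNA sequenced at BGI, mapped the reads to the mouse genome and estimated gene levels by RSEM. The submitters' processing notes name Bowtie2 2.2.5, RSEM 1.2.8, mm10 and GRCm38.p5. The deposited values are FPKM, which the authors scaled to transcript length and library size. No read counts were used, and the depth was estimated only from the steps of low FPKM values.

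Symbols and positions came from RefSeq (GRCm38.p6) by Entrez identifier, for 18467 of 19339 genes. Values were analysed as log2(FPKM + 1) where 2 or more libraries reached 1 FPKM, by limma 3.58.1 (R 4.3.3) using its trended empirical Bayes step and Benjamini-Hochberg adjustment over 12009 genes. The model was tested on simulated data. Tables were made with pandas and numpy in Python. Differences are *Kdm6b* F/F-*CD4Cre* minus control. Alternatives were another pseudocount, filter, scaling, trend, a replicate block, an epithelial covariate and leaving out each library.

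Named genes are the 8 receptors, *Kdm6b*, tested genes within 500 kb of the chromosome 9 interval, up to 4 genes a direction from each list with the largest differences among those whose groups did not overlap, and the 5 genes nearest to *Ccr9*. The receptors and lists were chosen with earlier results of these data known. The study's other assays (single cells, CUT&Tag, cytometry) were not analysed here, and 1 gene of the lists is not reported here.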

Additional observations from a re-analysis of the deposited data

How the results depend on the processing

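Among the 8 receptors, *Ccr9* and *Gpr15* were lower under each setting that tested them. Their groups did not overlap, so leaving out 1 library could not turn either. The replicate numbers 1 and 3 occur in both groups, and same-numbered libraries deviated together (Pearson 0.56 across genes, 2 pairs), but nothing says that a number marks a shared batch. With the replicate block limma called 1019 genes (8.49%) in place of 0, *Ccr9* (-1.07, adjusted p = 0.0071) and *Gpr15* (-1.32, adjusted p = 0.041) among them, against adjusted p values of 0.093 and above for *Ccr9* and 0.088 and above for *Gpr15* under all other settings. The filter fixed the directions of *Gpr15* and *Ccr3*, so calls of these genes are descriptions. Of 38 other named genes the block called 11, which were *Ccr3* (adjusted p = 0.00437), *P2ry10* (0.0215), *Ccl25* (0.000512), *Cxcl16* (0.00639), *Itgb1* (0.0378), *Rhoh* (0.0304), *Rgs2* (0.0324), *Runx3* (0.0201), BGI_novel_G000460, *Nutf2-ps2* and *Gm12253*. These 11 were named for groups without overlap or for likeness to *Ccr9* in these same data, so their calls are descriptions too. With the epithelial marker level as a covariate limma called 227 genes (1.89%), *Ccr7* (1.28) and *S1pr1* (1.45) among them. *Cxcr3* at 0.96, *Cxcr6* at 0.44 and *Gpr18* at 0.16 turned upward with it. Of the other named genes the covariate fit called 4, which were *Ccr3* (1.66, adjusted p = 0.0202), *Ccr1*, *Cxcl16* and *Rac1*. *Ccr3*, *Cxcl16* and *Rac1* were likewise named for groups without overlap. Under this covariate *Kdm6b* was at 0.11, *Limd1* at 0.071, *Sacm1l* at -0.052, *Lztfl1* at 0.12 and *2010315B03Rik* at -0.027.

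Genes past a log2 difference of 1 in either direction numbered 797, and 1381 with a pseudocount of 0.1, 1488 with scaling to the T cell genes and 452 with the covariate. Scaling to the T cell genes turned *Cxcr3* (0.20), *Cxcr6* (0.25), *Gpr18* (0.052), *Kdm6b* (0.22), *Itga1* (0.028), *Ptprc* (0.095), *Limd1* (0.31), *Lztfl1* (0.35) and *Fyco1* (0.34) upward. Quantile normalization turned *Ccr2* (-0.00067) and *Ppp2r3d* (-0.085). Receptors without overlap numbered 4 with T cell scaling (39.8% of all genes) and 1 at a minimum of 5 FPKM (36.7%), where *Gpr15* was not tested, against 2 (37%).

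Leaving out 1 library in turn gave 364 to 1577 such genes and 3 to 7 of the 8 receptors without overlap, against 57.5% to 78.6% of all genes. The log2 difference then ran from -1.29 to 0.88 for *Cxcr3*, -0.050 to 0.21 for *Ccr2*, -0.68 to 0.33 for *Cxcr6*, -0.13 to 1.02 for *Ccr7*, -0.73 to 1.25 for *S1pr1*, -0.79 to 0.057 for *Gpr18*, -1.43 to -0.71 for *Ccr9* and -1.68 to -0.96 for *Gpr15*. It ran from -0.52 to 0.16 for *Kdm6b*, -0.30 to 0.10 for *Limd1*, -0.012 to 0.30 for *Sacm1l*, -0.22 to 0.18 for *Lztfl1*, -0.076 to 0.044 for *Fyco1* and -0.075 to 0.16 for *Ppp2r3d*. Of the 38 other named genes, these 6 turned and 32 kept their direction, 24 of them with a move of over 1.5 times, such as *P2ry10* (-1.21 to -0.34), *Gpr55* (-0.95 to -0.28), *Runx3* (-1.03 to -0.30), *Slc6a20a* (0.26 to 1.87) and *Ccl25* (0.77 to 2.18). Genes from the lists were named only if their groups did not overlap, and those nearest to *Ccr9* did not overlap either. Such genes cannot turn when 1 library is left out, so their kept direction is not a test. A lone library left in a group was assumed to vary like the others. The cause of these changes was not tested.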

Other observations

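Control replicate 3 and CD4Cre-labelled replicate 1 were close in their epithelial markers (5243 and 4913 FPKM summed) and in the geometric mean of the 5 T cell genes (362 and 363 FPKM), and are 1 library each, with no test. This pair was chosen after the values were seen. Between them, on the log2(FPKM + 1) scale, the latter minus the former was -0.71 for *Ccr9* and -1.45 for *Gpr15*. It was higher by 1.68 for *S1pr1*, 1.43 for *Ccr7*, 1.21 for *Cxcr3*, 0.56 for *Cxcr6*, 0.26 for *Gpr18* and 0.052 for *Ccr2*. Their conventional T cell markers differed, at 136 FPKM summed in control replicate 3 and 255 FPKM in CD4Cre-labelled replicate 1. So did their markers of monocytes, macrophages and dendritic cells, at 329 and 547 FPKM in that order.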
